A study of Mus musculus with 3 samples.

Results

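Astrocytes and microglia are the glial cells that surround the dopaminergic neurons (DNs) of the midbrain ventral tegmental area (VTA), and 10 of their marker genes were examined in the accessible chromatin of DNs. The astrocyte genes were *Gfap*, *Aqp4*, *Aldh1l1*, *Slc1a2* and *Slc1a3*, and the microglia genes were *Cx3cr1*, *P2ry12*, *Csf1r*, *Aif1* and *Spi1*. They are 10 of the 21755 protein-coding genes of GENCODE M21 on the autosomes and the X chromosome. The set is defined by gene name and not by peak values, but it was chosen with earlier results of these data known. The same holds for the lists compared with it below. For each gene, the peaks that overlap the gene body or the 20 kb on either side of it were taken from the list of 55326 accessible peaks of DNs (mm10), and their number was set beside the 500 protein-coding genes nearest in length.

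The peaks come from single-nucleus ATAC-seq, in which a transposase inserts into open chromatin and each fragment carries the barcode of its nucleus. Nuclei came from the VTA of wild-type male C57Bl/6Nl mice, aged 7 weeks in replicate 1 and 9 weeks in replicate 2, and were sorted on DNA content and not on a cell type marker. The authors picked out the DN cluster afterwards by its gene score of *Th* and checked it with other DN markers, and both libraries went into 1 list of positions, without a height, score or count per peak. No value below therefore has a spread between replicates, no p-value is given, and a gene without a peak is one where none was called. The bulk ATAC-seq library of mouse embryonic stem cells of the same series was not analysed here.

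Astrocytes take up glutamate and potassium released by neurons, carry water through channels on their endfeet at blood vessels, and share metabolites with neurons. Microglia are the resident macrophages of the brain and arise from myeloid precursors outside the neural lineage. They read signals from neurons through surface receptors, among them the receptor for fractalkine and the receptor for the growth factors CSF1 and IL-34. The transcription factor PU.1, the product of *Spi1*, is needed for the myeloid lineage, including microglia.

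In DNs, the centre of a peak lay within 1 kb of an annotated transcription start site (TSS) in 1 of the 10 glial genes, the glutamate transporter gene *Slc1a2*. This was 10% of the genes, with an exact binomial interval at 95% confidence from 0.253 to 44.5%. The interval treats the 10 named genes as random draws, which they are not, and is no test against other genes. Over all protein-coding genes, the share was 56.4%, and among the 500 genes nearest in length it ranged from 36.8% for *Aif1* to 76.6% for *Cx3cr1*. None of the 5 microglia genes had a peak at a TSS. With the TSSs of the comprehensive annotation *Gfap* also had one, and with a limit of 2 kb *Spi1* did, so that either setting gave 2 of 10. In the gene body, 5 of the 10 genes had at least 1 peak, beside 63.8% of all protein-coding genes. Among the 500 genes nearest in length, the share without a body peak ranged from 6.80% for *Cx3cr1* to 59.0% for *Aif1*. Within 20 kb, 9 of the 10 genes had at least 1 peak, beside 76.6% of all protein-coding genes, and *Aqp4* was the gene without any. The share without a peak within 20 kb among genes nearest in length ranged from 4.80% for *Cx3cr1* to 45.4% for *Aif1*. The promoters and the wider surroundings of these genes therefore gave different counts, and the position of each peak is described below.

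**Figure D1:**
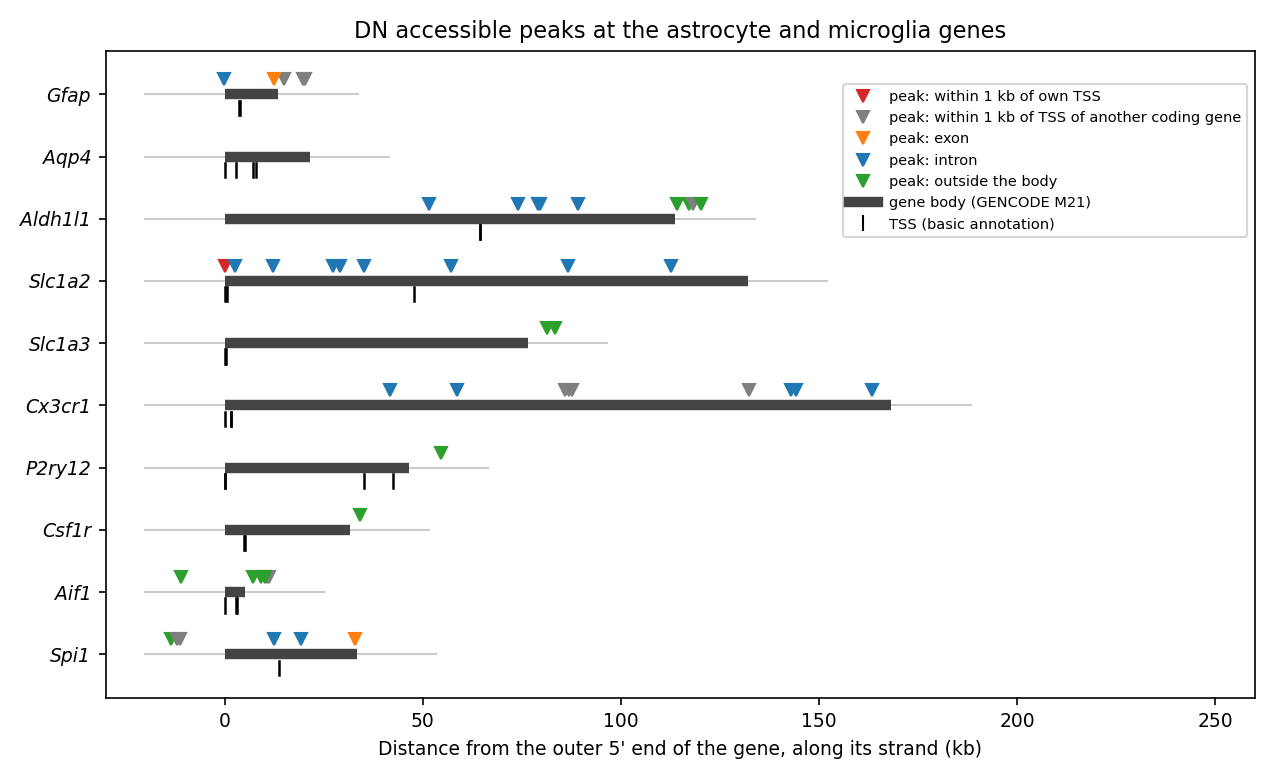
DN accessible peaks (triangles) at the 10 glial genes, drawn by distance in kb from the outer 5′ end of each gene along its strand. Thick bars are gene bodies, thin lines the 20 kb on either side, ticks below are annotated TSSs, and colours give the position of the peak. *Slc1a2* has the single peak at a TSS of its own gene, and *Aqp4* has no peak.

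The sequences of 6 intronic peaks are shown, because 5 of them are the intronic peaks, outside other coding genes and clear of exons of any transcript, with a match near their centre to a consensus sequence of a glial, neuronal or general factor, and the remaining one is the peak of *Spi1* nearest to its TSS. Each line gives the central 200 bases of a peak in GRCm38 (mm10), read on the strand of the gene, and is named by the distance in bp from the nearest TSS of the gene to the centre of the peak. Capitals mark matches, on either strand, to short consensus sequences that are spelled out below. The regions are chr6:90560423-90560622, chr6:90565319-90565518 and chr6:90575478-90575677 on the plus strand for *Aldh1l1*, chr2:102745262-102745461 on the plus strand for *Slc1a2*, chr9:120027907-120028106 on the minus strand for *Cx3cr1* and chr2:91094673-91094872 on the plus strand for *Spi1*.
Aldh1l1 +9718: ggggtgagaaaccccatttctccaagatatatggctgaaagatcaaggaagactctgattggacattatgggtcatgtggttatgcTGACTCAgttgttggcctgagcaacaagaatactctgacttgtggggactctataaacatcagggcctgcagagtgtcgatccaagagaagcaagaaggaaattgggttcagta
Aldh1l1 +14614: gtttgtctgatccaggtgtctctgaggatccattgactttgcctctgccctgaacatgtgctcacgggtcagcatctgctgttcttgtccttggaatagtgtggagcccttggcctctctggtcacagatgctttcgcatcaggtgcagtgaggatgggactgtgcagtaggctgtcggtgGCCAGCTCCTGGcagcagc
Aldh1l1 +24773: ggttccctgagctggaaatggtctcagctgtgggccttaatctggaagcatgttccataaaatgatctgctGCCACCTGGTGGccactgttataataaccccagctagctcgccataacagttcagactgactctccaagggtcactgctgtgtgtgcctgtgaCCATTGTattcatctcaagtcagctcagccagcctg
Slc1a2 +38924: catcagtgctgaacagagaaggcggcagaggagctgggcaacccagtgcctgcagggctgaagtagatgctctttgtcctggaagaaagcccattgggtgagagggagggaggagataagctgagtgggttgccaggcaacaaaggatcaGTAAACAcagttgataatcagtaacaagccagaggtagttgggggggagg
Cx3cr1 +40276: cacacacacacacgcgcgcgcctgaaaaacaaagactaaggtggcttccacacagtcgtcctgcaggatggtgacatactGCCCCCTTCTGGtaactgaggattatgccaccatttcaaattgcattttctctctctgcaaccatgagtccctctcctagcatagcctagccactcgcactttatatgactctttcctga
Spi1 -1323: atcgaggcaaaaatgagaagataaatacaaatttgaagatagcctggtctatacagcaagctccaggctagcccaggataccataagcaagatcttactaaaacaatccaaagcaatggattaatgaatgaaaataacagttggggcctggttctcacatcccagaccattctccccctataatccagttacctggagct
Among the *Aldh1l1* sequences, the one nearest to the TSS has a match to the AP-1 consensus and the others to the CTCF consensus, and the one farthest from the TSS also has a match to the SOX consensus. The sequence of *Slc1a2* has a match to the forkhead consensus and that of *Cx3cr1* to the CTCF consensus. The sequence of *Spi1*, from the peak nearest to its TSS, has none in these 200 bases.

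The 2 glutamate transporter genes of astrocytes differed in their DN peaks. *Slc1a2* encodes GLT-1, the main glutamate uptake carrier of the adult forebrain, and covers 132.1 kb (chr2:102658659-102790784, plus strand). It held 9 peaks, all of them in the gene body, at 68.1 peaks per Mb of gene. This number was at percentile 87.9 of the 500 genes nearest in length, which had a median of 3 peaks. The promoter peak (chr2:102658579-102659078) is centred 170 bp into the gene from the outer TSS and has a GC content of 67.4%, against 40.2 to 50.6% in the other 8 peaks. Those 8 lie in introns, from 1.99 kb to 65.0 kb from the nearest TSS of the gene. *Slc1a3* encodes GLAST, the related carrier of Bergmann glia and other astrocytes, and covers 76.6 kb (chr15:8634124-8710764, minus strand). It held no peak in its body, where 15.4% of the 500 genes nearest in length also had none and the median was 2. Its 2 peaks within 20 kb lie beyond the 3′ end, with centres 81.0 and 83.1 kb downstream of the nearest TSS. The nearest peak to a TSS of *Slc1a3* on either side was 75.0 kb away. *Slc1a1*, which encodes the glutamate carrier of neurons, had 2 peaks in its body, at percentile 51.1, with the centre of 1 of them 20 bp from the TSS.

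*Gfap* and *Aldh1l1* had peaks in or beside the gene but none at the TSSs of the basic annotation. *Gfap*, the intermediate filament gene of astrocytes, covers 13.6 kb (chr11:102887336-102900912, minus strand) and had 2 peaks in its body, at percentile 80.4. The first (chr11:102888069-102888568) overlaps an exon 8.81 kb downstream of the nearest TSS. The other (chr11:102900761-102901260) is centred 3.81 kb upstream of the nearest basic TSS and covers the outer end of the annotated gene, where a noncoding *Gfap* transcript outside the basic set begins. Its centre lies outside the body, and *Gfap* counted by peak centres was at percentile 68.0 and with the RefSeq body, which held 1 peak, at 55.2. The other 3 peaks within 20 kb lie within 1 kb of a TSS of *Eftud2*, *Ccdc103* or *Fam187a*, the next genes on the chromosome. *Aldh1l1* encodes a folate enzyme used as a marker of astrocytes, and its annotated body covers 113.8 kb (chr6:90486427-90600203, plus strand). It had 5 peaks in the body, at percentile 75.0, and 9 within 20 kb, at percentile 82.1. Against genes matched on length and GC content, these percentiles were 46.7 and 56.4. The TSS of the basic annotation lies within this body, and 1 of the 5 peaks is 12.7 kb upstream of it, whereas 4 lie 9.72 to 24.8 kb downstream of it. Of the 4 peaks beyond the 3′ end, 1 has its centre 83 bp from the TSS of *Slc41a3*. *Aqp4*, the gene of the water channel of astrocyte endfeet, covers 21.5 kb (chr18:15389496-15410982, minus strand). The nearest peak began 33.6 kb from its body, and 19.2% of the 500 genes nearest in length also had no peak within 20 kb.

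Of the 5 microglia genes, *P2ry12*, *Csf1r* and *Aif1* had no peak in the body. *P2ry12*, the ADP receptor of microglia, covers 46.6 kb (chr3:59216272-59262871, minus strand), inside the body of *Med12l* on the other strand, and had no peak in its body, as 21.6% of the 500 genes nearest in length. Its single peak within 20 kb lies inside *P2ry13*, a receptor gene of the same family next to it, 12.1 kb downstream of the nearest TSS of *P2ry12*. *Csf1r*, the receptor for CSF1 and IL-34, covers 31.6 kb (chr18:61100598-61132149, plus strand) and had no peak in its body, as 23.4% of the 500 genes nearest in length. Its single peak lies 2.26 kb beyond the 3′ end, inside *Hmgxb3*. *Aif1*, which encodes the actin-binding protein IBA1, covers 5.08 kb (chr17:35170991-35176068, minus strand) within the major histocompatibility complex, a gene-dense region. It had no peak in its body, as 59.0% of the 500 genes nearest in length, and 6 peaks within 20 kb, at percentile 84.6. Of these 6 peaks, 2 lie within 1 kb of a TSS of *Prrc2a*, and the nearest to a TSS of *Aif1* has its centre 3.82 kb away.

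*Cx3cr1*, the fractalkine receptor gene of microglia, showed how far a count can depend on the annotation. GENCODE M21 gives it a body of 168.3 kb (chr9:119901616-120069879, minus strand), because of 1 long transcript, and this body held 9 peaks, at percentile 84.0. Of the 9 peaks, 4 lie within 1 kb of a TSS of *Gorasp1*, *Ttc21a* or *Csrnp1*, which lie inside this body. A further 3 lie inside *Wdr48* or *Gorasp1*, and 2 lie in no other protein-coding gene, with centres 40.3 and 57.01 kb downstream of the nearest TSS. With the body that RefSeq gives on the same assembly, 19.6 kb (chr9:120048683-120068296), *Cx3cr1* had 0 peaks in the body and 0 within 20 kb, at percentiles 15.0 and 8.20. This comparison was chosen after the counts were seen. The nearest peak centre to an annotated TSS of *Cx3cr1* was 28992 bp away. *Cx3cl1*, which encodes fractalkine, its ligand made by neurons, had 2 peaks in its body, the centre of 1 of them 95 bp from a TSS.

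*Spi1* was the microglia gene with a peak nearest to a TSS. It encodes PU.1 and covers 33.4 kb (chr2:91082390-91115756, plus strand). It had 3 peaks in its body, at percentile 81.2, against a median of 1 in the 500 genes nearest in length. Against genes matched on length and GC content, this percentile was 56.2. The centres of the 3 peaks lie 1.32 kb upstream of the TSS, 5.49 kb downstream of it in an intron, and 19.1 kb downstream of it over an exon. The first of these (chr2:91094523-91095022), upstream of the basic TSS but inside the annotated body, is the peak whose central sequence without a match is printed above. The other 3 peaks within 20 kb lie upstream of the gene, 2 of them within 1 kb of the TSS of *Slc39a13* and 1 inside that gene.

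**Figure D2:**
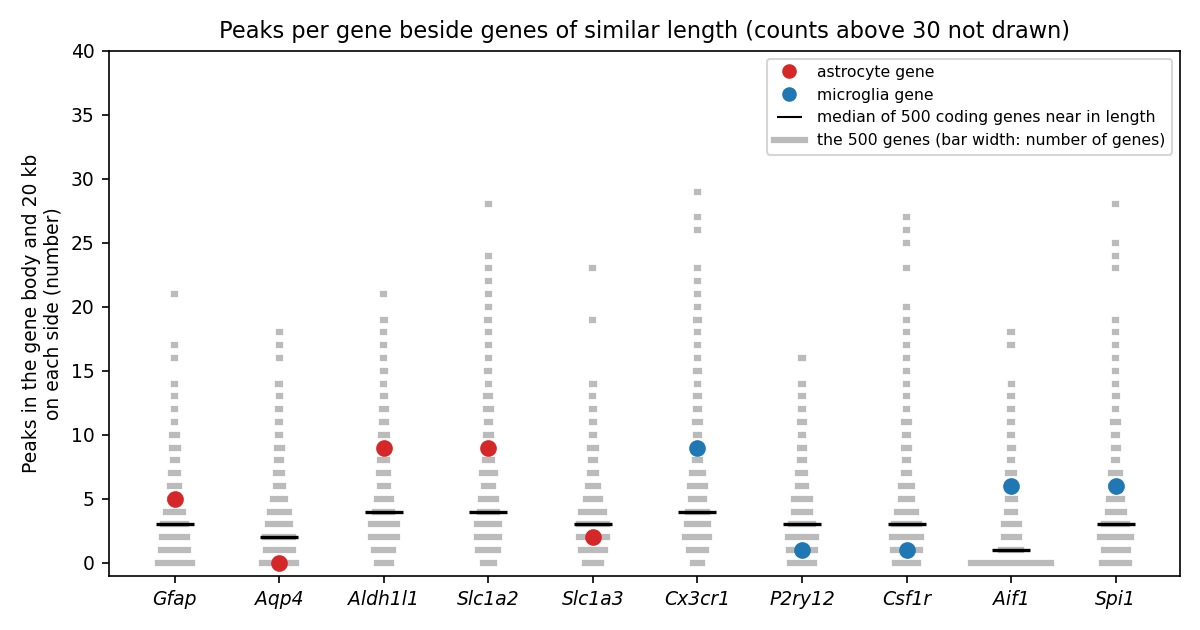
Number of peaks in the gene body and 20 kb on each side (dots, astrocyte genes in red and microglia genes in blue), beside the 500 protein-coding genes nearest in length to each gene (grey, bar width by number of genes; black line, median). Counts above 30 are not drawn. The 10 genes run from 0 peaks for *Aqp4* to 9 for *Aldh1l1*, *Slc1a2* and *Cx3cr1*, and 6 of them lie above percentile 50.

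Over the 10 genes, 48 peaks were counted, and no peak was counted for more than 1 gene. Of these, 1 lies at a TSS of its own gene, 12 within 1 kb of a TSS of another protein-coding gene, 2 over an exon, 21 in the body outside exons of the basic set, called intronic here, and 12 outside the body. The peaks at TSSs of other genes had a median GC content of 56.3%, the other 36 peaks 50.3%, and all peaks of the list 52.0%. With peaks at TSSs of other genes left out, both for the glial genes and for the 500 genes of similar length, the percentile within 20 kb moved from 74.5 to 57.3 for *Gfap* and from 78.2 to 58.9 for *Cx3cr1*. It was 82.0 for *Aldh1l1* and 82.2 for *Slc1a2* in the same count. The median percentile of the 10 genes was 52.3 in the body, where 5 genes lie above 50, and 76.4 within 20 kb, where 6 do. These medians depended on the setting: in the body and within 20 kb they were 35.0 and 48.3 against genes matched on length and GC content, 19.1 and 52.8 with RefSeq bodies, and 50.4 and 58.1 without peaks at TSSs of other genes. Both groups of glial genes held genes of both kinds: 3 of the 5 astrocyte genes and 2 of the 5 microglia genes had a peak in the body. The threshold of 20 kb left out peaks 20.4 kb from the body of *Gfap* and 21.3 kb from that of *Spi1*, and the farthest peak it kept lies 13.2 kb from the body of *Spi1*.

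The surroundings of these genes also varied. In the 1 Mb around the middle of a protein-coding gene, the median number of DN peaks was 30, with quartiles of 15 and 59. Around the glial genes it ran from 11 for *Slc1a3*, 18 for *Aqp4* and *P2ry12* and 23 for *Slc1a2* through 40 for *Cx3cr1*, 51 for *Csf1r* and 52 for *Aldh1l1* and *Spi1* to 61 for *Aif1* and 88 for *Gfap*. *Slc1a2* thus held 9 of the 23 peaks of a neighbourhood below the median, whereas *Csf1r* had none in its body in a neighbourhood above it. GC content of the gene with 20 kb on either side was lowest for *Aqp4* (40.5%) and *P2ry12* (40.6%) and highest for *Spi1* (50.9%). When the 500 genes were also matched on this GC content, *Slc1a2* was at percentile 85.6 within 20 kb, *Aldh1l1* at 56.4, *Cx3cr1* at 49.9, *Spi1* at 46.7 and *Csf1r* at 7.40. *Aif1* moved from 84.6 to 54.9 and *Gfap* from 74.5 to 54.7 in this count, and 4 of the 10 genes lay above 50. In the gene body with the same matching, *Slc1a2* moved from 87.9 to 93.0, *Cx3cr1* from 84.0 to 62.8 and *Spi1* from 81.2 to 56.2. *Gfap* moved from 80.4 to 69.1 and *Aldh1l1* from 75.0 to 46.7, and 4 of the 10 genes lay above 50. The low percentiles moved in both directions with the way of counting. Over all alternatives run, the percentile in the body ranged from 5.00 to 15.2 for *Slc1a3*, 7.30 to 24.7 for *Csf1r*, 9.60 to 20.9 for *P2ry12*, 13.8 to 28.8 for *Aqp4* and 12.9 to 37.9 for *Aif1*, each highest when a peak had to lie wholly inside. Around the gene, it ranged from 8.50 to 24.3 for *Aqp4*, 7.40 to 49.5 for *Csf1r* and 9.30 to 44.3 for *P2ry12*, each highest with 50 kb on either side, and from 17.9 with 50 kb to 40.2 without peaks at TSSs of other genes for *Slc1a3*.

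Further marker genes of the same cells were examined to set the 10 genes in context. Over all protein-coding genes, 56.4% had a peak at a TSS and 63.8% had one in the body. Of 15 other astrocyte genes, 6 (40%) had a peak at a TSS and 10 had a peak in the body, with a median body percentile of 39.0. The 6 were *Aldoc*, a glycolytic enzyme gene with 1 body peak at percentile 70.3, *Glul*, glutamine synthetase, with 3 at 89.1, *Atp1b2*, a subunit of the sodium pump, with 2 at 84.3, *Ntsr2*, a neurotensin receptor, with 1 at 68.5, *Slc6a11*, a GABA transporter, with 2 at 39.0, and *Slc4a4*, a bicarbonate transporter, with 2 at 16.3. Of 17 other microglia genes, 2 (11.8%) had a peak at a TSS and 5 had a peak in the body, with a median body percentile of 27.9. The 2 were *C1qa*, which encodes a chain of complement C1q, and *Irf8*, a myeloid transcription factor gene, with peak centres 500 and 45 bp from the TSS. *C1qa*, *C1qb* and *C1qc* lie side by side, so their windows of 20 kb share peaks. Within 20 kb, 13 of the 15 astrocyte genes and 13 of the 17 microglia genes had a peak, beside the 76.6% of all protein-coding genes given above. Those without were *Gjb6* and *Fgfr3* among the astrocyte genes and *Ptprc*, *Itgam*, *Sall1* and *Laptm5* among the microglia genes.

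A further list held 5 genes whose products signal to microglia or other myeloid cells and *Slc1a1*, the glutamate carrier gene of neurons described above. *Cx3cl1*, *Csf1*, *Cd200*, *Cd47* and *Slc1a1*, which are 5 of the 6 genes of this list, had a peak at a TSS, with centres between 18 and 95 bp from it. *Il34*, the other ligand of CSF1R, had 6 peaks in its body and 15 within 20 kb, at percentiles 89.1 and 95, with the nearest centre 5.33 kb from a TSS of the basic annotation. With the comprehensive annotation *Il34* also had a peak at a TSS, so that 6 of the 6 did, and at the outer end of the gene alone 4 did, without *Cd47* and *Il34*. All 6 genes had at least 1 peak in the body. Over all protein-coding genes, 63.8% had a peak in the body and 56.4% had one at a TSS.

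Genes of the neurons themselves were counted for comparison. All 10 DN genes and all 9 pan-neuronal genes had a peak at a TSS, beside 56.4% of all protein-coding genes. The median body percentiles were 97.0 for DN genes and 87.7 for pan-neuronal genes, beside 52.3 for the 10 glial genes. These TSS counts were 8 of 10 and 8 of 9 at the outer end of the gene alone, where *Th*, *Ddc* and *Rbfox3* had none, and 9 of 10 and 9 of 9 within 500 bp, where *Lmx1b* had none. Within 20 kb, the median percentiles were 89.3 for DN genes, 80.9 for pan-neuronal genes and 76.4 for the 10 glial genes among genes nearest in length, and 95.4, 97.2 and 48.3 among genes matched on length and GC content. The DN genes ran from *Slc6a3*, the dopamine transporter, at percentile 64.9, *Pitx3* at 89.2 and *En1* at 95.6 to *Foxa2* and *Ddc* at 99.2 and *Lmx1b* at 100. The DN cluster was chosen by its gene score of *Th* and checked with others of these genes, *Lmx1b*, *Foxa2* and *Slc6a3* among them. The peaks of these genes are therefore not independent of the choice, and neither is the comparison of the DN genes with the glial genes. Among the pan-neuronal genes, *Syt1* was at percentile 81.5, *Syp* at 85.1, *Elavl4* at 87.0, *Map2* at 90.0, *Tubb3* at 96.7 and *Rbfox3* at 99.1. The median distance from a TSS to the nearest peak centre was 0.0775 kb for DN genes and 0.062 kb for pan-neuronal genes, against 0.252 kb over all protein-coding genes and 10.9 kb for the 10 glial genes. The 10 glial genes ranged from 0.17 kb for *Slc1a2* to 75.0 kb for *Slc1a3*.

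Genes of other non-neuronal cells of the tissue were counted in the same way. Over all protein-coding genes, 56.4% had a peak at a TSS, 63.8% in the body and 76.6% within 20 kb. Of 10 oligodendrocyte lineage genes, 3 (30.0%) had a peak at a TSS, namely *Mbp*, *Cnp* and *Pdgfra*, and 5 had a peak in the body, at a median percentile of 41.1. Of 5 endothelial genes, none had a peak at a TSS and 2 had a peak in the body, at a median percentile of 31.0. Within 20 kb, 9 of the 10 oligodendrocyte lineage genes and 2 of the 5 endothelial genes had a peak, at median percentiles of 51.5 and 20.9. Among genes matched on length and GC content these medians were 40.3 and 11.4, beside 48.3 for the 10 glial genes in the same count. The body medians with this matching were 29.6 and 18.4, beside 35.0 for the 10 glial genes. A peak list pools all nuclei of the cluster and does not show how many nuclei carried a peak. A share of nuclei of other cells in the cluster as a source of the peaks at glial genes was not tested. The lists hold 5 to 17 genes each, and none of these differences between lists was tested.

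**Figure D3:**
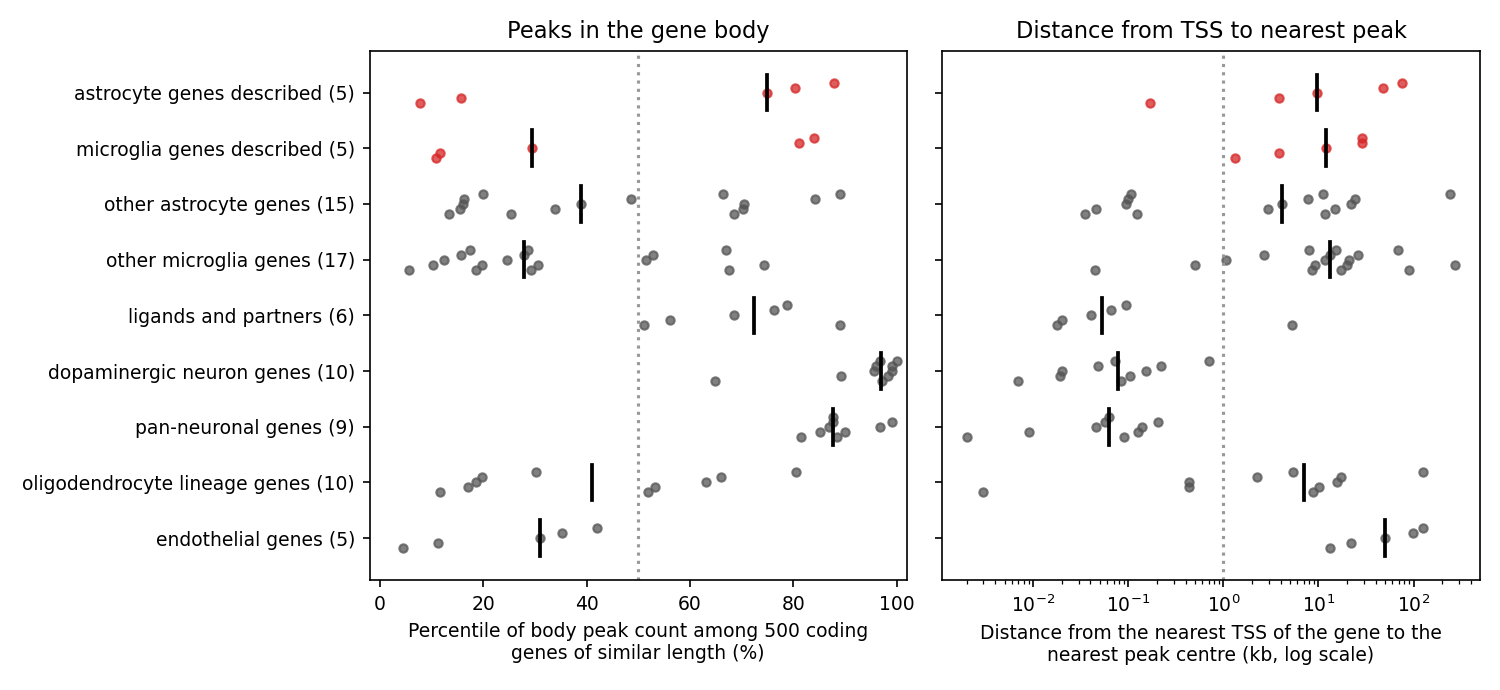
Left, percentile of the number of peaks in the gene body among the 500 protein-coding genes nearest in length, for each gene of 9 lists (dots, in red for the 10 glial genes described and in grey for other lists, with the number of genes in parentheses; black lines, medians; dotted line, 50). Right, distance in kb on a log scale from a TSS of the gene to the nearest peak centre, with the dotted line at 1 kb. Dots are spread vertically for clarity. *Slc1a2* is the glial gene among the 10 left of the line at 1 kb, and all DN and pan-neuronal genes lie left of it.

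To describe the sequence of the 48 peaks, 8 short consensus sequences were searched on both strands: GAGGAAGT for PU.1, TTGGC and GCCAA with any 5 bases between them for NFI, ACAATGG for SOX factors, TGANTCA for AP-1, TTCCNGGAA for STAT factors, TGTTTAC for forkhead factors, CCA, AG and GGC with any 2 bases in each gap for CTCF and CAGATGG for the *Neurod* E-box, where N is any base. The CTCF consensus occurred in 7 of the 48 peaks (14.6%, exact binomial interval 6.07 to 27.8%), and in 10.1% of the peaks of the whole list. All 7 peaks have a match within the central 200 bp, where 8.24% of all peaks have one. Peaks with it are at *Gfap*, *Slc1a3*, *Cx3cr1* and *Spi1* (1 each) and at *Aldh1l1* (3). The AP-1 consensus occurred in 12 peaks (25.0%, interval 13.6 to 39.6%), against 12.3% of all peaks, but in the central 200 bp in 1 peak (2.08%), against 5.38%. The binomial intervals for the consensus sequences treat the 48 peaks as independent, although peaks of 1 gene share their region. They are no test against the share of all peaks. The peak with the central AP-1 match is the *Aldh1l1* peak 9.72 kb downstream of the TSS, printed above.

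The PU.1 consensus, the site of the factor that *Spi1* encodes, occurred in 2 of the 48 peaks (4.17%, interval 0.509 to 14.3%) and in 3.10% of all peaks. The 2 peaks are the intronic peak of *Slc1a2* 38.9 kb downstream of a TSS and the single peak of *P2ry12*. The SOX consensus occurred in 2 peaks (4.17%, against 4.81% of all), the STAT consensus in 2 (4.17%, against 1.54%), the *Neurod* E-box in 4 (8.33%, against 11.5%), the forkhead consensus in 1 (2.08%, against 7.22%) and the NFI consensus in none, as in all but 0.0868% of all peaks. No difference between these shares was tested, and peaks of 1 gene share their region. These are short consensus sequences and not motif models, and a match is not a bound site.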

How the data were processed

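Accessible peaks of DNs were analysed as the authors deposited them, as 1 list of peak positions made from both VTA libraries. The authors mapped reads to mm10 with Cell Ranger, removed doublets by a gate in the sort and by ArchR's default procedure, filtered and clustered nuclei with ArchR, made pseudobulk replicates of the DN cluster and merged the peaks reproducible among them into 1 list. Every peak is 500 bp wide, so that width carries no signal, and the depth behind a call is not in the list. Starts were read as counted from 0 and are printed counted from 1. All peaks lay within the chromosome lengths of GRCm38, the assembly that mm10 is.

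Genes and TSSs came from GENCODE M21, and TSSs from its basic set. A peak was counted by an overlap of at least 1 bp, and assigned to a TSS when its centre was within 1 kb. The percentile of a gene is the share of the 500 protein-coding genes nearest in length with fewer peaks, plus that with as many peaks divided by 2. Sequences were read from RefSeq's GRCm38.p6. The genes and lists were chosen with earlier results of these data known. Named were the 10 genes, genes with a TSS within 1 kb of a peak counted for them, and from each other list the genes with a TSS peak if 8 or fewer, otherwise the 3 highest and 3 lowest in body percentile. *Th*, *Gjb6*, *Fgfr3*, *Ptprc*, *Itgam*, *Sall1*, *Laptm5*, *C1qb*, *C1qc*, *Il34* and the further neighbours *Med12l*, *P2ry13*, *Hmgxb3* and *Wdr48* were named after their values were seen. Alternatives changed the overlap, the flanks, the reference genes, the TSS distance and, after the counts were seen, the annotation, and were also run for the other lists. Counting was checked on simulated data. Python 3.11.15, numpy 2.4.6, scipy 1.17.1 and matplotlib 3.10.9 were used.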

Additional observations from a re-analysis of the deposited data

How the results depend on the processing

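The count of genes with a peak in the body was 4 or 5 of 10, and within the window 8 to 10 of 10, under every alternative run for them. Peaks at TSSs also depended on the annotation and on the distance allowed. With the outer end of the gene as the only TSS, or with all TSSs of the comprehensive annotation, 2 of the 10 genes had one, *Slc1a2* and *Gfap*, so that 2 of the 5 astrocyte genes did, and with 2 kb in place of 1 kb, 2 did, *Slc1a2* and *Spi1*, so that 1 of the 5 microglia genes did. The share over all protein-coding genes was 53.4% at the outer end, 54.5% within 500 bp, 58.0% within 2 kb and 58.1% with the comprehensive annotation. The central 200 bp is a shorter window, in which shares were lower over all peaks too. There, the share of the 48 peaks with a match was 0% for PU.1 (all peaks 1.27%), and 2.08% each for AP-1 (5.38%), the *Neurod* E-box (5.32%), SOX (1.78%) and STAT (0.609%). Single genes moved more: of 160 percentiles of the 10 genes under alternatives, 69 left the 95% binomial interval of the reported one. Only the pooled list of both libraries was used, so that no paired analysis was made and no replicate was left out. No stricter peak threshold could be applied to a list without scores. The paper states that aligned reads and signal tracks of DNs are also available, and these were not used here. The number of nuclei and fragments behind a peak limits what could be called, and weak accessibility at a gene without a peak cannot be seen here.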
